A study of Mus musculus with 26 samples.

Results

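Sham joints were compared between 16 and 8 weeks after surgery across all genes of the array, in the 3 sham 16 weeks pools and the 3 sham 8 weeks pools as their titles give them, 6 of the 26 arrays of the series. Each pool held RNA from 3 male C57BL/6 mice, and every mouse was 12 weeks old at surgery. The sham 16 weeks mice were therefore 28 weeks old and the sham 8 weeks mice 20 weeks old. Sham surgery was the control operation for destabilization of the medial meniscus (DMM), in which the medial meniscotibial ligament is cut so that osteoarthritis develops. The DMM 16 weeks and DMM 8 weeks pools, 3 of each, came from mice of the same strain, sex and ages. The remaining arrays held unoperated joints at time 0 (age 12 weeks) and sham or DMM joints at 2 and 4 weeks. The tissue block came from the medial side of the operated knee and held articular cartilage and the bone under it from tibia and femur, with meniscus, ligaments, capsule and synovium. Age and time since sham surgery moved together between both groups and cannot be told apart.

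Cartilage is made by chondrocytes, which secrete a network of type II collagen fibrils with types IX and XI collagen, filled by the proteoglycan aggrecan. In the young mouse, chondrocytes of the growth plate also divide, enlarge and give way to bone, under control of Indian hedgehog, parathyroid hormone related protein and fibroblast growth factor signals. As the skeleton matures the growth plate slows and the adult chondrocyte turns its collagen over only slowly. In a block of whole joint tissue, fewer cells of a type and less RNA per cell cannot be told apart.

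The values were log2 signals, so a difference of 1 is a doubling, and they were compared in limma over all 26 arrays. Of 22421 probe sets tested, 2 passed an adjusted p of 0.05 after Benjamini-Hochberg correction (called, 0.00892%), and both were lower in sham 16 weeks joints. They were the only probe sets tested for Cnmd and for Grb14, so 2 of 11487 genes were called (0.0174%). At an unadjusted p under 0.05 there were 2425 probe sets (10.8%), of which 909 were higher and 1516 lower. Among genes, 819 (7.13%) were lower and 490 (4.27%) higher at that level. All 3 sham 16 weeks pools lay below all 3 sham 8 weeks pools in 1099 genes (9.57%) and above them in 889 (7.74%). The median log2 difference over all genes was -0.0039. A difference below -1 was seen in 37 genes and one above 1 in 1 gene. The number called was 4 with the replicate number as a block, 216 (200 lower) with the muscle signal described below as a covariate, and 0 to 34 with 1 pool left out, highest without sham 8 weeks replicate 1. With 3 pools against 3 the smallest p of an exact rank test for a single gene is 0.1. The limma calls rest mainly on each probe set's spread over all 9 conditions (17 residual degrees of freedom). A smaller part came from the spread shared across probe sets (3.54 prior degrees of freedom).

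Sham 8 weeks replicate 3 stood apart from the other sham 8 weeks pools in several gene groups, and sham 16 weeks replicate 3 was the low pool for muscle genes. The mean log2 signal of 21 cartilage genes was 11.21 in sham 8 weeks replicate 3, against 10.65 and 10.82 in replicates 1 and 2. That of 19 B cell precursor genes was 9.31 there, against 10.30 and 10.09. The pairwise correlation of the 6 arrays ranged between 0.965 and 0.9919. The difference between the 3′ and 5′ control probe sets of Gapdh, a measure of RNA integrity, was 0.313 to 0.479 in sham 16 weeks pools and 0.229 to 0.350 in sham 8 weeks pools. Defining markers of cartilage, bone, synovium, tendon, marrow, muscle and fat passed the signal filter (a mean log2 signal above 7.93), except Bglap and Plin1, which had no probe set of their own. So did Prm1, a sperm gene, at 8.95 to 8.98 in sham 16 weeks pools and 8.77 to 8.90 in sham 8 weeks pools, so passing it does not show that a gene was expressed.

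Cnmd encodes chondromodulin, a glycoprotein that chondrocytes deposit in their matrix and that keeps blood vessels out of cartilage. Its log2 signal was 10.80, 10.61 and 11.17 in the 3 sham 16 weeks pools and 11.68, 12.03 and 12.42 in the 3 sham 8 weeks pools. The groups did not overlap, and the highest sham 16 weeks pool lay below the lowest sham 8 weeks pool. Cnmd fell by 1.18 ± 0.17 (SE, n = 3 pools each; 95% interval -1.54 to -0.82; limma adjusted p = 0.0281), to 0.441 of its signal at 8 weeks. Its mean in unoperated joints was 12.89 ± 0.072, and the sham means at weeks 2, 4, 8 and 16 were 12.70 ± 0.28, 12.13 ± 0.15, 12.04 ± 0.37 and 10.86 ± 0.28 (SD, n = 3 each). The means at 4 and 8 weeks differed by less than their spread. The call was lost without sham 8 weeks replicate 3, where the difference was -0.99 (adjusted p = 0.152). It was also lost without sham 16 weeks replicate 1 (0.229), sham 16 weeks replicate 2 (0.0806) or sham 8 weeks replicate 2 (0.108).

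Grb14 encodes an adaptor protein that binds the insulin receptor and restrains its signal. It had a log2 signal of 8.28, 8.35 and 8.21 in sham 16 weeks pools and 8.83, 8.75 and 8.84 in sham 8 weeks pools. The pools of each group lay close together and the groups were well apart. These values were no higher than those of the sperm gene Prm1, at 8.95 to 8.98 in sham 16 weeks and 8.77 to 8.90 in sham 8 weeks pools. Such a level does not by itself show that a gene was expressed. Grb14 fell by 0.53 ± 0.08 (SE, n = 3 pools each; 95% interval -0.70 to -0.36; limma adjusted p = 0.0303), to 0.694 of its signal at 8 weeks. Its sham means were 9.06, 8.83, 8.73, 8.81 and 8.28 at time 0 and 2, 4, 8 and 16 weeks (n = 3 each). Sham 8 weeks and sham 4 weeks joints differed by 0.08 ± 0.08 (SE), so they were level within their error. Another probe set for Grb14, below the signal filter, differed by -0.22 ± 0.18. The call was lost without any one of sham 16 weeks replicates 1, 2 and 3 (adjusted p = 0.229, 0.0506 and 0.269) and sham 8 weeks replicates 2 and 3 (0.108 and 0.152).

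The 250 bases before the transcription start of both called genes, and of Matn3, the cartilage gene with the smallest p that was not called, are shown beside the calls, since they differ in how many CG pairs they hold. They are RefSeq sequences (GRCm38.p6), read on the gene's strand, with every CG pair in capitals.
Cnmd, chr14:79662184-79662433, minus strand: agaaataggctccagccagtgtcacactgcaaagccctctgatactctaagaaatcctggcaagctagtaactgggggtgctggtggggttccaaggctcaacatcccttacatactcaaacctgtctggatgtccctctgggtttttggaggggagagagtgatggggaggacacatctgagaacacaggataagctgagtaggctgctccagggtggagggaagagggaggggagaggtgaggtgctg
Grb14, chr2:65022767-65023016, minus strand: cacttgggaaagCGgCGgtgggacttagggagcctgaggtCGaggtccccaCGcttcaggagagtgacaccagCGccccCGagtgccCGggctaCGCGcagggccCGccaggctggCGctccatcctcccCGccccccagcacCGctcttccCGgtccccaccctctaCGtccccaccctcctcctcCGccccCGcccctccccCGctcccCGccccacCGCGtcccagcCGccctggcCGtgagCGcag
Matn3, chr12:8947679-8947928, plus strand: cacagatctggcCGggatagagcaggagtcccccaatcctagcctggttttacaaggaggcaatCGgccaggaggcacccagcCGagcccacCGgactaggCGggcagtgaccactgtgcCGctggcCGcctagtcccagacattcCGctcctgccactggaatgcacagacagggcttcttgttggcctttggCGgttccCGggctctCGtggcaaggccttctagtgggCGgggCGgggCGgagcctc
The Cnmd window held 0 CG pairs, which was so in 1.38% of the windows of 9282 tested genes, in 2 of 15 cartilage windows (13.3%) and in 8.27% of the windows of all genes, and 54% of its bases were G or C. The Grb14 window held 24 CG pairs, more than 77.3% of the tested genes, and 75.2% G or C. The Matn3 window held 14, with 65.2% G or C. The median was 7 over 15 of the 21 cartilage genes described below, 16 over the tested genes and 6 over all 27025 genes with a sequence. The letters ACAAAG or ACAATG, 6-base forms that SOX factors bind, were searched on both strands. They occurred in 3 of the 15 cartilage windows (20%), those of Epyc, Sox5 and Sox6, in 17.1% of the tested genes and in 25.4% of all genes. None of the 3 windows printed above held them.

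The cartilage list held 25 genes, of which 21 passed the filter. Matn1, Matn4 and Otor did not pass it and Clec3a had no probe set of its own. Only Cnmd was called. Of the 21 genes, 20 had a difference below 0 (51.2% of all genes), 18 were lower at an unadjusted p under 0.05 (7.13% of all genes) and 16 had all sham 16 weeks pools below all sham 8 weeks pools (9.57% of all genes). The median difference was -0.61. This list, like the others, was chosen with earlier results of these data known, so these counts are not independent evidence. The only member above 0 was Sox6, a chondrocyte transcription factor, at 0.29 ± 0.20. With 1 pool left out at a time the median ranged from -0.64 to -0.53 and the number of members lower at that level from 15 to 18. Without sham 8 weeks replicate 3, the pool with the highest cartilage signal, 19 of 21 members were below 0 and the median was -0.53. With the Gapdh 3′ to 5′ difference as a covariate the median was -0.61 and 18 members were lower at that level, but Cnmd was not called (adjusted p = 0.0531).

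Col2a1, the main fibril collagen of cartilage, had a log2 signal of 10.36, 11.26 and 11.14 in sham 16 weeks pools and 12.25, 12.21 and 13.57 in sham 8 weeks pools. The groups did not overlap, and sham 8 weeks replicate 3 was the highest pool. The difference was -1.76 ± 0.33 (SE, adjusted p = 0.0929), a signal at 16 weeks of 0.296 of that at 8 weeks, and was not called. With the replicate number as a block it was called (adjusted p = 0.0452). Col9a1, a chain of the type IX collagen that coats those fibrils, had the largest difference of the list. Its signal was 7.94, 9.13 and 8.48 in sham 16 weeks pools and 10.40, 10.44 and 12.50 in sham 8 weeks pools. The difference was -2.60 ± 0.51 (adjusted p = 0.13), and a dimmer probe set for the gene gave -0.91. Sham 8 weeks replicate 3 was again the highest pool, and the other sham 8 weeks pools lay close together.

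Matn3 encodes matrilin-3, which links collagen fibrils to other matrix proteins. It measured 9.29, 9.78 and 9.49 in sham 16 weeks pools and 10.60, 11.19 and 12.27 in sham 8 weeks pools. The difference was -1.83 ± 0.33 (adjusted p = 0.0929), and -1.79 on its other probe set. Epyc encodes epiphycan, a small proteoglycan of growth plate cartilage, and its signal was 7.75, 7.75 and 7.94 in sham 16 weeks pools and 8.61, 8.98 and 9.81 in sham 8 weeks pools. Its sham 16 weeks pools were nearly level and sat around the filter, and the difference was -1.32 ± 0.25 (adjusted p = 0.0929). Comp, a pentameric matrix protein shared with tendon, was the brightest member. It measured 12.26, 12.55 and 12.97 in sham 16 weeks pools and 13.16, 13.18 and 13.07 in sham 8 weeks pools (difference -0.54 ± 0.17, adjusted p = 0.303). Cytl1, a protein secreted by chondrocytes, overlapped between the groups, with 12.92, 13.08 and 13.14 in sham 16 weeks pools and 13.52, 13.61 and 13.12 in sham 8 weeks pools.

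Acan (aggrecan), Hapln1, whose product locks aggrecan to hyaluronan, and Sox9, the master transcription factor of chondrocytes, were chosen for the text after their values were seen. Their differences were -0.61 ± 0.19, -1.15 ± 0.28 and -0.44 ± 0.15, none of them called. The 4 probe sets for Hapln1 lay between -1.40 and -1.14, whereas the 3 for Sox9 disagreed in sign (-0.44, 0.16 and -0.71). The members with a difference below -1 described here all encode secreted matrix proteins.

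**Figure D1:**
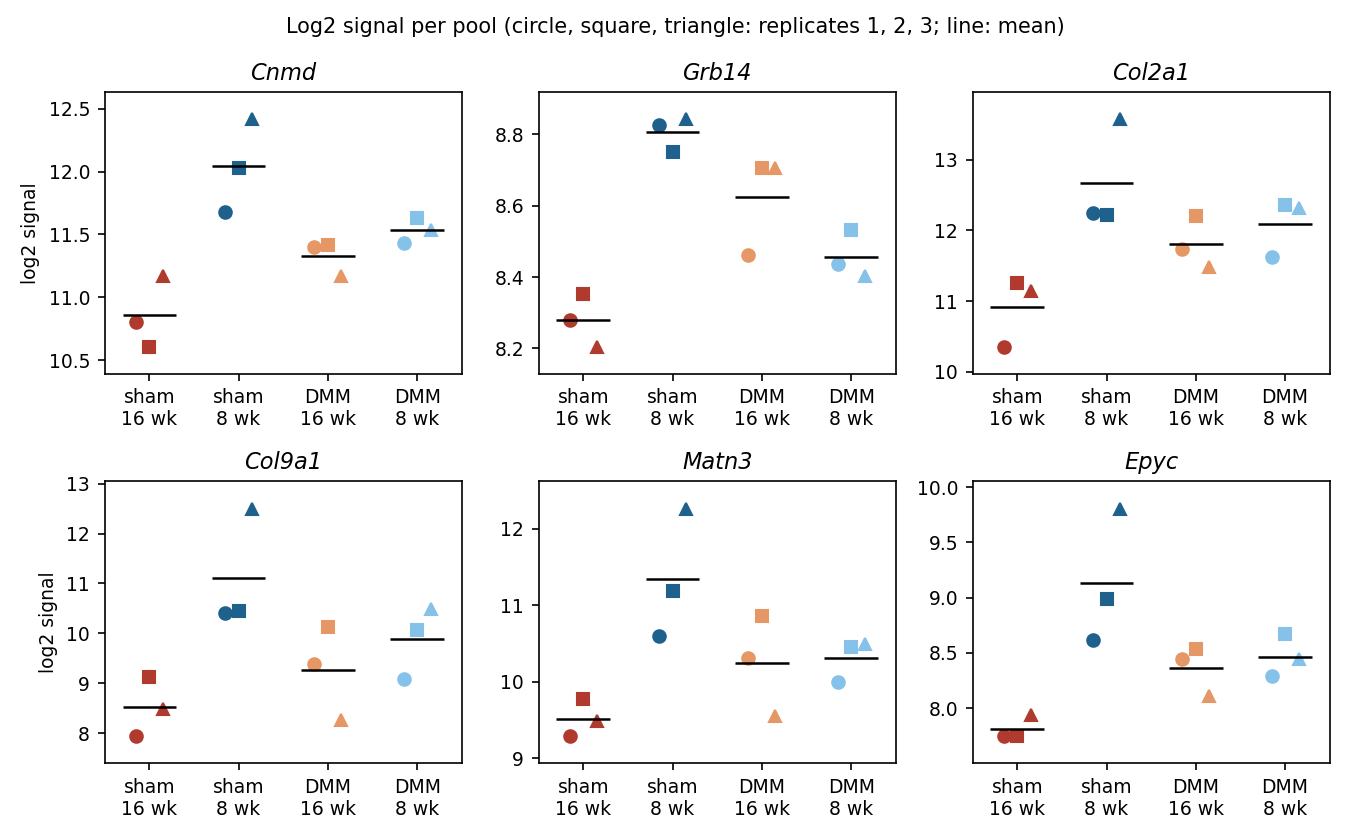
Log2 signal (y axis) of Cnmd, Grb14, Col2a1, Col9a1, Matn3 and Epyc in each pool, for sham 16 weeks, sham 8 weeks, DMM 16 weeks and DMM 8 weeks. Symbols are replicates 1, 2 and 3, lines are means of 3 pools, and each panel has its own axis, which does not start at 0. In all 6 panels the 3 sham 16 weeks pools lie below the 3 sham 8 weeks pools.

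The growth plate list covers the signals and products of chondrocytes that enlarge before bone replaces them, and 13 of its 19 genes were tested. Some members are also products of bone cells, and Phex is counted among the osteocyte genes too. The description of the tissue block names no growth plate, so the list cannot be read as growth plate chondrocytes alone. None was called. A difference below 0 was seen in 12 (51.2% of all genes). At an unadjusted p under 0.05, 10 were lower (7.13% of all genes) and 8 had all sham 16 weeks pools below (9.57%). The median was -0.47, and -0.63 to -0.44 with 1 pool left out, when 6 to 9 were lower at that level (6 without sham 8 weeks replicate 2). Col10a1, the collagen of enlarged chondrocytes, had 7.92, 8.57 and 8.53 in sham 16 weeks pools and 9.11, 9.01 and 10.60 in sham 8 weeks pools, a difference of -1.24 ± 0.34 (adjusted p = 0.246). Without sham 8 weeks replicate 3, the highest pool, it was -0.72 ± 0.29. Panx3, a membrane channel of maturing chondrocytes and osteoblasts, had 8.83, 8.95 and 9.03 in sham 16 weeks pools and 9.57, 9.79 and 10.13 in sham 8 weeks pools (-0.89 ± 0.22, adjusted p = 0.219). The groups of neither gene overlapped. Ibsp, which encodes bone sialoprotein, and Mmp13, the collagenase of enlarged chondrocytes, were the brightest members, with differences of -0.51 ± 0.15 and -0.43 ± 0.18. Fgfr3, the receptor that slows growth plate chondrocytes, measured 8.68, 8.87 and 8.99 in sham 16 weeks pools and 9.15, 9.49 and 9.48 in sham 8 weeks pools (-0.53 ± 0.11, adjusted p = 0.148). All 3 of its sham 16 weeks pools lay below all 3 sham 8 weeks pools. The other members lower at an unadjusted p under 0.05 were Pth1r, Mef2c, Ptch1, Alpl and Phex.

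The sham 16 weeks pools were the low end of the sham course for both lists. The mean log2 signal of the 21 cartilage genes was 11.66 ± 0.089 in unoperated joints, and 11.49 ± 0.23, 10.95 ± 0.15, 10.89 ± 0.28 and 10.09 ± 0.13 in sham joints at weeks 2, 4, 8 and 16 (SD, n = 3 each). The 13 growth plate genes averaged 11.34, 11.30, 10.82, 10.72 and 10.23 at the same times. In the cartilage list the means at 4 and 8 weeks differed by less than the spread of the pools. The growth plate list had 10.82 ± 0.080 at 4 weeks and 10.72 ± 0.15 at 8 weeks (SD), and its pools overlapped. The comparisons of sham 16 weeks with time 0 and of sham 8 weeks with time 0 share pools with the comparison described here, and their own values stand beside it. Against time 0, 1306 probe sets were called at 16 weeks (1009 lower) and 209 at 8 weeks. Col2a1 differed from time 0 by -3.17 ± 0.33 at 16 weeks and -1.41 ± 0.33 at 8 weeks, and Cnmd by -2.03 ± 0.17 and -0.85 ± 0.17, all 4 called. Between sham 8 weeks and sham 4 weeks joints 0 probe sets were called in limma, with 2477 at an unadjusted p under 0.05.

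**Figure D2:**
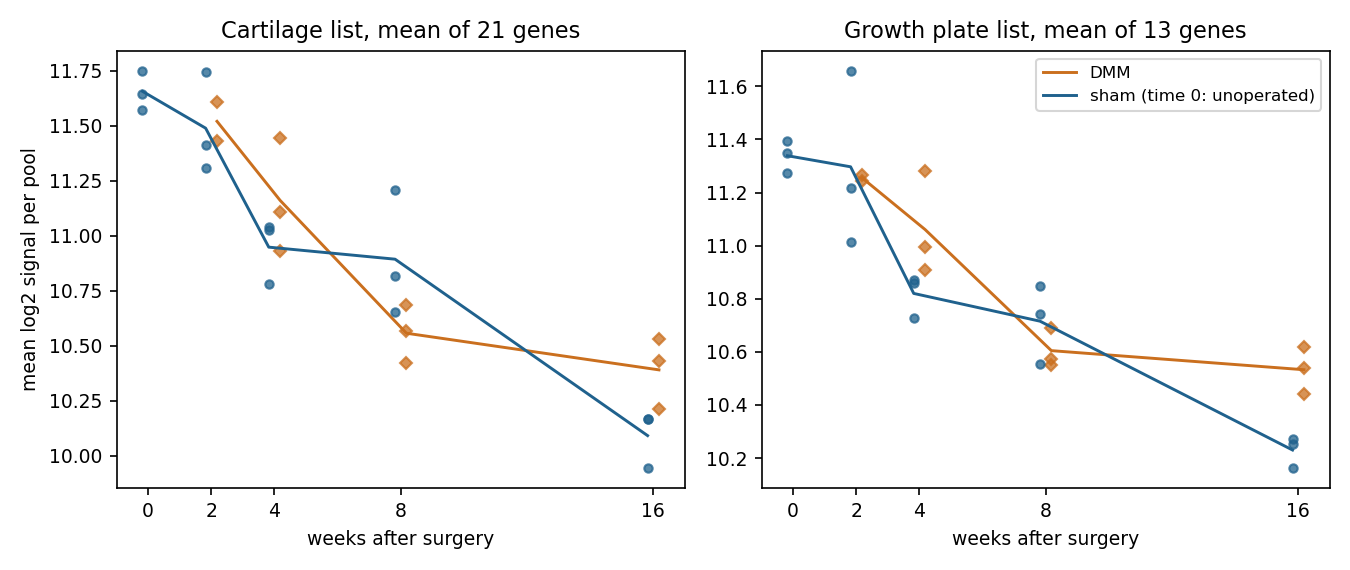
Mean log2 signal (y axis, not starting at 0) of the 21 cartilage genes and the 13 growth plate genes in each pool against weeks after surgery, for DMM joints and for sham joints with unoperated joints at time 0. Points are pools and lines join the means, and the sham 16 weeks pools are the lowest of the sham course, at 9.94 to 10.16 for the cartilage genes.

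Bone genes were mostly below 0 too, by less, and 0 of them were called. In the list of osteoblasts and bone matrix, 12 of 14 tested genes were below 0 and 7 were lower at an unadjusted p under 0.05 (7.13% of all genes). The median was -0.35 (-0.42 to -0.20 with 1 pool left out). The number lower at that level ranged from 2 without sham 16 weeks replicate 1 to 9 without sham 16 weeks replicate 2. Its brightest member, Col1a2, a chain of the type I collagen of bone and tendon, was the least different of those described. It had 14.96, 15.04 and 14.98 in sham 16 weeks pools and 15.19, 15.05 and 15.24 in sham 8 weeks pools (-0.17 ± 0.10). Sparc, a collagen-binding protein of bone, differed by -0.33 ± 0.099 and Omd, which encodes osteoadherin, by -0.59 ± 0.21. Among 11 osteocyte genes, those of the cells embedded in bone, 10 were below 0 with a median of -0.34, and 6 were lower at that level (3 without sham 16 weeks replicate 1). Phex, an osteocyte enzyme needed for phosphate balance, had 9.05, 9.44 and 9.30 in sham 16 weeks pools and 9.92, 9.94 and 9.86 in sham 8 weeks pools (-0.64 ± 0.14, adjusted p = 0.167), without overlap. Dmp1, an acidic mineral-binding protein of osteocytes, overlapped (-0.21 ± 0.23), and Gja1, the gap junction protein that joins these cells, differed by -0.34 ± 0.15. Osteoclasts, the cells that remove bone, gave 8 of 13 genes below 0, 1 lower and 1 higher at an unadjusted p under 0.05, and a median of -0.08.

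Genes of tendon and ligament showed the same direction. Of 12 tendon and ligament genes, 11 were below 0, 6 lower at an unadjusted p under 0.05 (7.13% of all genes) and 7 with pools apart (9.57% of all genes), with a median of -0.47. With 1 pool left out, 2 to 6 were lower at that level, with 2 without sham 16 weeks replicate 1. Fmod encodes fibromodulin, which steers collagen fibril assembly in tendon and cartilage. It had 11.12, 11.57 and 11.87 in sham 16 weeks pools and 12.32, 12.41 and 12.70 in sham 8 weeks pools, a difference of -0.96 ± 0.21 (adjusted p = 0.155). All 6 of its tested probe sets were lower. Kera, which encodes keratocan and is also counted among osteocyte genes, had 7.31, 8.24 and 7.77 in sham 16 weeks pools and 8.35, 8.94 and 9.25 in sham 8 weeks pools (-1.08 ± 0.39). Dcn, which encodes decorin, was bright and differed little (-0.27 ± 0.12). These genes also belong to the small leucine-rich proteoglycans, of which 11 of 12 were below 0, 6 lower at an unadjusted p under 0.05 and 8 with pools apart (median -0.36). Without sham 16 weeks replicate 1, 3 were lower at that level. Bgn, which encodes biglycan, differed by -0.20 ± 0.15. In the list of fibroblasts and microfibrils 17 of 20 genes were below 0 (median -0.18). But 0 of them were lower at an unadjusted p under 0.05, and 2 had pools apart (10%, against 9.57% of all genes). Among 18 matrix proteases and inhibitors, 16 were below 0 and 1 was lower at that level (median -0.24).

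All 13 genes of the soft tissue collagens were below 0, 5 of them lower at an unadjusted p under 0.05 (7.13% of all genes), with a median of -0.39. With 1 pool left out the number was 1 to 6, with 1 without sham 16 weeks replicate 1 or sham 8 weeks replicate 3. Col3a1, the type III collagen of pliable tissue, had 12.76, 13.34 and 13.46 in sham 16 weeks pools and 13.64, 13.98 and 14.03 in sham 8 weeks pools (-0.70 ± 0.20, adjusted p = 0.246). Col12a1, which sits on the surface of type I fibrils, differed by -0.57 ± 0.24. All 21 genes for collagen folding, processing and cross-linking were below 0 as well, but only 4 were lower at an unadjusted p under 0.05 (median -0.25). With 1 pool left out that number ranged from 0 without sham 8 weeks replicate 2 to 8 without sham 16 weeks replicate 2 or sham 8 weeks replicate 1, and the median from -0.40 to -0.14. The collagen chaperone Serpinh1 overlapped, at 11.12, 12.17 and 11.47 in sham 16 weeks pools and 11.67, 12.07 and 12.65 in sham 8 weeks pools (-0.29 without sham 8 weeks replicate 3). Pcolce, which speeds removal of the collagen propeptide, differed by -0.46 ± 0.24 and Plod2, a lysyl hydroxylase for cross-links, by -0.58 ± 0.24. The synovial lining showed little difference. Of 12 genes 7 were below 0 with a median of -0.05, and Prg4, the joint lubricant, had 14.27, 14.53 and 14.50 in sham 16 weeks pools and 14.48, 14.65 and 14.42 in sham 8 weeks pools. The remaining named members of that list were Cd44 (-0.14 ± 0.093), Htra4 (-0.47 ± 0.30) and Clic5 (-0.35 ± 0.25).

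Genes of the growth signalling lists, which include antagonists and binding proteins, were lower in part, and 0 were called. Of 20 genes for IGF, FGF and PDGF signalling, 14 were below 0 and 5 lower at an unadjusted p under 0.05 (7.13% of all genes), with a median of -0.16. All sham 16 weeks pools lay below all sham 8 weeks pools in 8 (9.57% of all genes) and above in 3 (7.74%). The IGF-binding protein genes Igfbp3, Igfbp5 and Igfbp7, whose products hold IGFs in the matrix, differed by -0.47 ± 0.20, -0.27 ± 0.15 and -0.26 ± 0.16. Of 10 imprinted growth genes, 9 were below 0 and 4 lower at that level (median -0.29). Meg3, a maternally expressed noncoding RNA, had 9.56, 9.84 and 9.83 in sham 16 weeks pools and 10.26, 10.66 and 10.29 in sham 8 weeks pools (-0.66 ± 0.24), but 3 of its 8 tested probe sets were not lower. Plagl1, a transcription factor of that network, differed by -0.51 ± 0.15. In the Wnt pathway 15 of 22 genes were below 0 and 8 lower at an unadjusted p under 0.05 (7.13% of all genes), with a median of -0.15. The 3 Wnt genes described encode secreted antagonists. Wif1 had 10.38, 11.43 and 10.94 in sham 16 weeks pools and 11.28, 11.74 and 11.84 in sham 8 weeks pools (-0.70 ± 0.23), Sfrp2 differed by -0.54 ± 0.23, and Sfrp4 did not stand out (-0.06 ± 0.12). Of 22 BMP and TGF beta genes, 19 were below 0 and 5 lower at that level (7.13% of all genes), with a median of -0.17. In the basement membrane list 16 of 19 genes were below 0 and 9 had pools apart (9.57% of all genes; median -0.19), with Nid2, which encodes the linker nidogen-2, at -0.64 ± 0.20 and Col4a1, a type IV collagen chain, at -0.40 ± 0.24. With 1 pool left out, the number lower at an unadjusted p under 0.05 was as low as 2 of the IGF, FGF and PDGF genes (without sham 8 weeks replicate 2), 3 of the Wnt genes (without sham 16 weeks replicate 1 or sham 8 weeks replicate 2) and 3 of the BMP and TGF beta genes (without sham 16 weeks replicate 1 or 3).

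**Figure D3:**
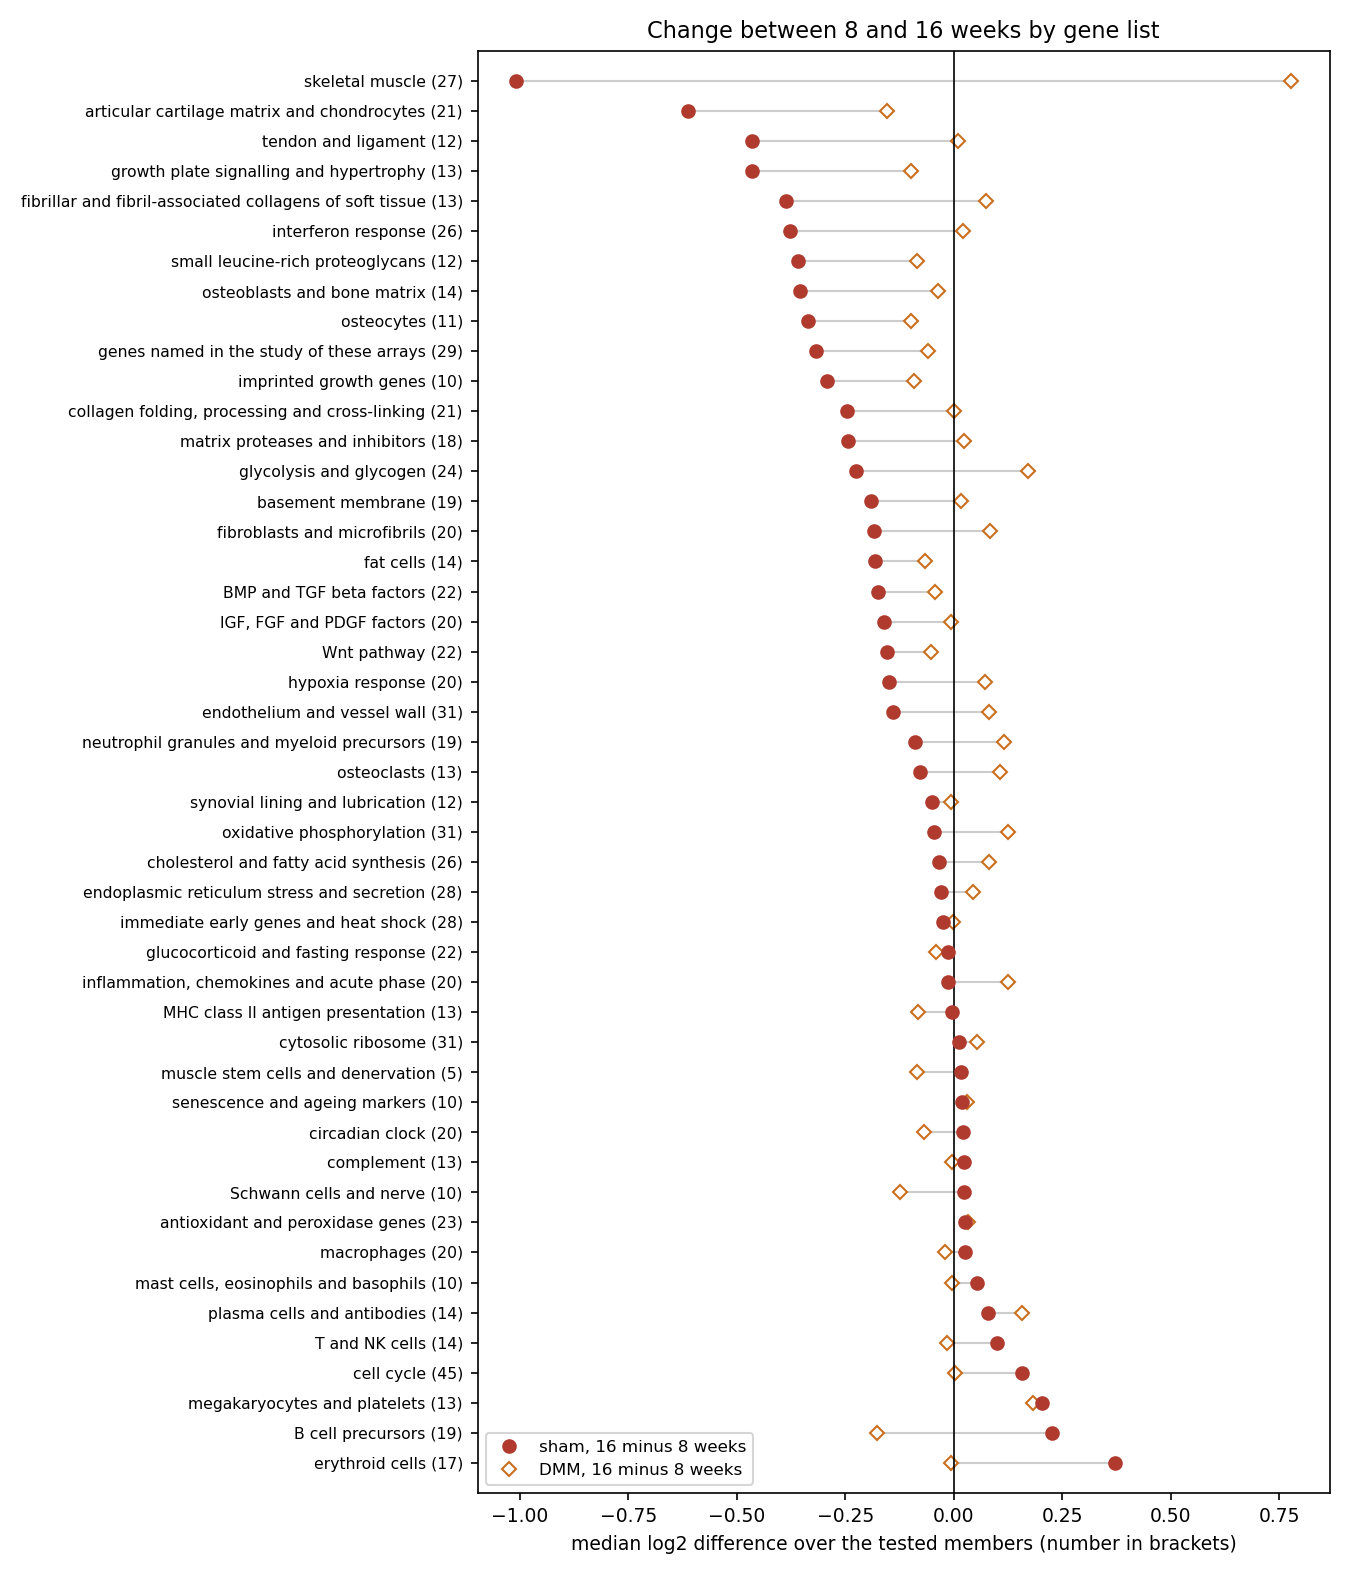
Median log2 difference between 16 and 8 weeks (x axis) over the tested members of each of 47 gene lists (y axis, ordered by the sham value, number of members in brackets), for sham joints (filled circles) and DMM joints (open diamonds). In sham joints 32 of the 47 medians were below 0, with the lowest for skeletal muscle (-1.01) and the cartilage list (-0.61).

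Muscle genes were below 0, although the labels state that muscle outside the joint was taken off before dissection, and 0 of them were called. All 27 genes of the skeletal muscle list were below 0, with a median of -1.01. At an unadjusted p under 0.05, 5 were lower (18.5%, against 7.13% of all genes), and 12 had pools apart (44.4%, against 9.57%). The mean log2 signal of the list was 11.30, 11.49 and 10.08 in sham 16 weeks pools and 12.19, 11.92 and 11.44 in sham 8 weeks pools, so the groups overlapped. Its summed linear signal ranged between 40355 and 119809 in sham 16 weeks pools and between 120031 and 198632 in sham 8 weeks pools. Neb, which encodes the giant thin filament protein nebulin, had 10.23, 10.65 and 8.53 in sham 16 weeks pools and 11.34, 11.41 and 10.74 in sham 8 weeks pools (-1.36 ± 0.69). Replicate 3 was the lowest pool of each group, as it was for Myl1, a myosin light chain (-1.32 ± 0.58), Myh4, the fast myosin heavy chain (-0.93 ± 0.46), and Tnnc2, fast troponin C (-1.07 ± 0.60). Without sham 16 weeks replicate 3 the median was -0.57, and Neb and Myl1 were at -0.73 and -0.77. The number lower at an unadjusted p under 0.05 was 0 without that pool or sham 8 weeks replicate 2 in limma, 1 without sham 8 weeks replicate 1 and 13 without sham 16 weeks replicate 2. Muscle genes made up 14 of the 40 lowest differences but 0 of the 40 smallest p, whereas cartilage genes made up 7 and 6. With the mean of the muscle list as a covariate, the median of the cartilage list was -0.74 and 13 of its 21 members were called. Over all 11487 genes that fit called 141. The covariate itself differed between the groups, with a mean of 10.96 in sham 16 weeks and 11.85 in sham 8 weeks pools.

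Genes of sugar breakdown were lower in 19 of 24 cases, with a median of -0.23. At an unadjusted p under 0.05, 7 were lower (7.13% of all genes). The largest differences were in Pgam2 (-1.15 ± 0.58) and Eno3 (-1.11 ± 0.64), the muscle forms of phosphoglycerate mutase and enolase, and both had sham 16 weeks replicate 3 as the lowest pool. Without it they were at -0.63 and -0.57, and 3 of the 24 genes were lower at that level. Ldha (lactate dehydrogenase) differed by -0.16 ± 0.074 and Aldoa (aldolase) by -0.49 ± 0.20. Of 31 genes of endothelium and vessel wall, 25 were below 0, with a median of -0.14. At an unadjusted p under 0.05, 6 were lower (7.13% of all genes), or 2 without sham 16 weeks replicate 1 or 3.

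Erythroid genes of the marrow lay the other way, though 0 were called. All 17 erythroid genes were above 0 (48.8% of all genes) with a median of 0.37. But 0 were higher at an unadjusted p under 0.05 in limma (4.27% of all genes), and 0 were called. In 1 gene all sham 16 weeks pools lay above (5.88%, against 7.74% of all genes). Rhd, a red cell membrane protein, had 12.57, 12.17 and 12.43 in sham 16 weeks pools and 12.37, 11.92 and 11.43 in sham 8 weeks pools (0.49 ± 0.30). Sham 8 weeks replicate 3 was the lowest pool, as it was for Epor, the erythropoietin receptor (0.47 ± 0.28), Slc4a1, the red cell anion exchanger (0.23 ± 0.21), and Slc25a37, the mitochondrial iron importer (0.24 ± 0.21). The summed linear signal of the erythroid list ranged between 89108 and 117574 in sham 16 weeks pools and between 62222 and 102061 in sham 8 weeks pools. Without sham 8 weeks replicate 3 the erythroid median was 0.15, with all 17 still above 0. Rhd was then at 0.25 and Epor at 0.18. The median of 19 B cell precursor genes was 0.23, and -0.10 without that pool. All 19 neutrophil and myeloid precursor genes were slightly below 0 (median -0.09), with 0 at an unadjusted p under 0.05 in limma. The part of marrow content in the lower values of the skeletal lists was not tested.

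Cell division genes, which dividing marrow precursors express, were above 0 in 45 of 45 cases, with a median of 0.16 (0.12 to 0.21 with 1 pool left out) and 14 with all sham 16 weeks pools above (7.74% of all genes). Only Mcm2, a subunit of the replicative helicase, was higher at an unadjusted p under 0.05. It had 11.97, 11.75 and 11.87 in sham 16 weeks pools and 11.71, 11.58 and 11.34 in sham 8 weeks pools (0.32 ± 0.14, adjusted p = 0.445). Ccne1 (cyclin E1), Pcna (the replication clamp) and Mki67 differed by 0.35 ± 0.17, 0.23 ± 0.13 and 0.17 ± 0.13. All 13 megakaryocyte and platelet genes were above 0 as well, with 7 having all sham 16 weeks pools above and a median of 0.20 (0.15 to 0.25 with 1 pool left out). Gp9, part of the platelet receptor for von Willebrand factor, differed by 0.25 ± 0.13 and Itgb3, the platelet integrin chain also made by osteoclasts, by 0.24 ± 0.10. Of 14 T and NK cell genes 11 were above 0 and 3 higher at an unadjusted p under 0.05 (4.27% of all genes). Cd8a, the coreceptor of cytotoxic T cells, had 8.72, 8.65 and 8.79 in sham 16 weeks pools and 8.38, 8.42 and 8.19 in sham 8 weeks pools (0.39 ± 0.11, adjusted p = 0.242), but only 1 of its 2 tested probe sets was higher. Zap70, a kinase of the T cell receptor, differed by 0.31 ± 0.12. Of 14 plasma cell and antibody genes, 9 were above 0 and 5 below, with a median of 0.08. At an unadjusted p under 0.05, 4 were higher (4.27% of all genes). Igha had 13.86, 13.83 and 13.69 in sham 16 weeks pools and 13.78, 13.41 and 12.30 in sham 8 weeks pools (0.63 ± 0.28). Without sham 8 weeks replicate 3 the Igha difference was 0.20 ± 0.23. Ighm differed by 0.49 ± 0.33, with 5 of its 7 tested probe sets lower.

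The interferon list depended on single pools. Of 26 genes 22 were below 0 and 11 lower at an unadjusted p under 0.05 (7.13% of all genes), with a median of -0.38. Yet 0 had all sham 16 weeks pools below all sham 8 weeks pools (9.57% of all genes). The mean of the list was 9.52, 9.78 and 9.50 in sham 16 weeks pools and 9.60, 9.81 and 10.33 in sham 8 weeks pools, with sham 8 weeks replicate 3 the highest. Cxcl10, an interferon-induced chemokine, had 7.86, 8.45 and 7.63 in sham 16 weeks pools and 7.89, 8.81 and 9.67 in sham 8 weeks pools (-0.81 ± 0.35, and -0.37 without sham 8 weeks replicate 3). Ifi27l2a differed by -0.60 ± 0.24, whereas the brightest members, Rsad2 and Isg20, were at 0.14 ± 0.23 and 0.31 ± 0.23. Without sham 8 weeks replicate 3 the median was -0.08 and 0 of 26 were lower at an unadjusted p under 0.05 in limma. The number was 2 without sham 16 weeks replicate 1 or 3 and 20 without sham 8 weeks replicate 1.

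**Figure D4:**
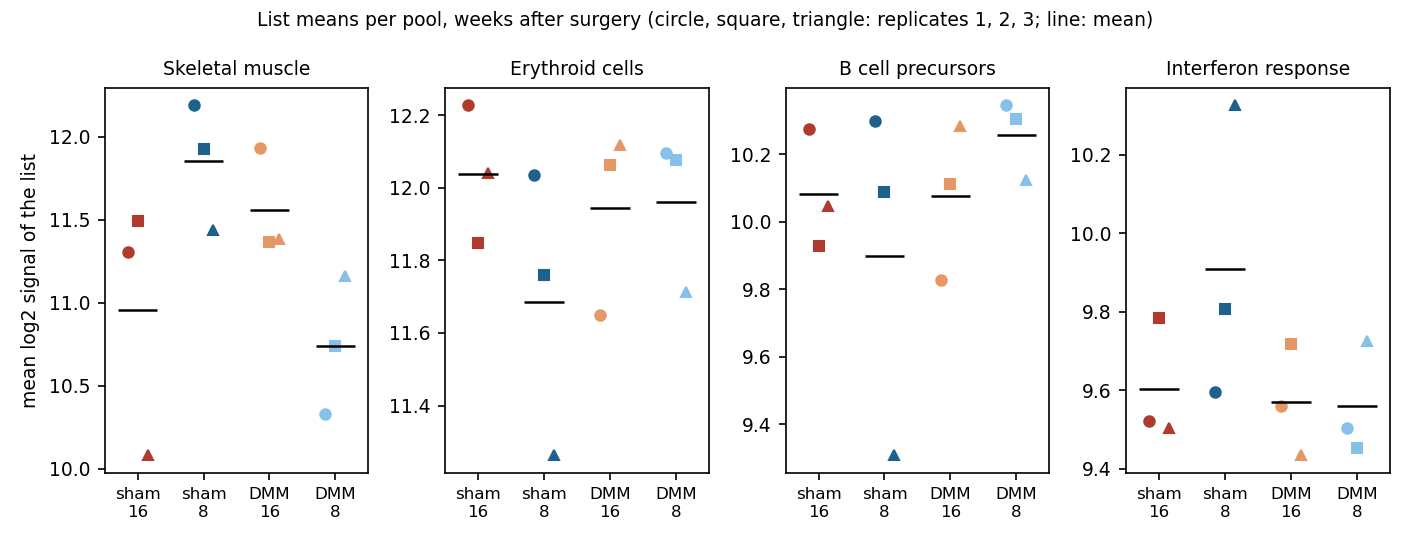
Mean log2 signal (y axis, not starting at 0) of the skeletal muscle, erythroid, B cell precursor and interferon lists in each pool, for sham and DMM joints at 16 and 8 weeks. Symbols are replicates 1, 2 and 3 and lines are means of 3 pools. Sham 8 weeks replicate 3 is the lowest of the pools shown for erythroid (11.26) and B cell precursor genes (9.31) and the highest for interferon genes (10.33), and sham 16 weeks replicate 3 is the lowest for muscle genes (10.08).

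Fewer probe sets had an unadjusted p under 0.05 between 16 and 8 weeks in DMM joints than in sham joints of the same ages. In DMM joints 0 of 22421 were called in limma (0%, smallest adjusted p 0.722) and 849 had an unadjusted p under 0.05 (3.79%). Among genes, 132 (1.15%) were lower and 291 (2.53%) higher at that level. With 1 pool left out, the probe sets at that level numbered 430 to 1073 in DMM joints and 1339 to 4766 in sham joints. The direct test of DMM against sham is the interaction below. The DMM and sham comparisons share no pools, and across 11487 genes, which are not independent and come from the same arrays and normalization, the Pearson correlation of both differences was -0.36. The median of the 21 cartilage genes was -0.15 in DMM joints, with 19 below 0 (46.2% of all genes) and 3 with all DMM 16 weeks pools below (4.79% of all genes). Their mean was 10.43, 10.53 and 10.21 in DMM 16 weeks pools and 10.42, 10.69 and 10.56 in DMM 8 weeks pools. The medians in DMM joints were -0.10 for growth plate genes, -0.04 for osteoblast genes, 0.01 for tendon genes and 0.08 for soft tissue collagens. The muscle list went the other way, with a median of 0.78 and 22 of 27 genes with all DMM 16 weeks pools above all DMM 8 weeks pools (7.68% of all genes).

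Whether both differences were unlike was tested as an interaction, the DMM difference minus the sham difference. It called 0 of 22421 probe sets in limma (0%; smallest adjusted p 0.161), with 2410 at an unadjusted p under 0.05 (10.7%). Cnmd had 11.40, 11.42 and 11.17 in DMM 16 weeks pools and 11.43, 11.63 and 11.54 in DMM 8 weeks pools, a difference of -0.20 ± 0.17. Its interaction was 0.98 (95% interval 0.46 to 1.49; adjusted p = 0.215), and did not pass the threshold. Grb14 had 8.46, 8.71 and 8.70 in DMM 16 weeks pools and 8.44, 8.53 and 8.40 in DMM 8 weeks pools (0.17 ± 0.08), with an interaction of 0.69 (95% interval 0.45 to 0.94; adjusted p = 0.161). At an unadjusted p under 0.05 the interaction took in 8 of the 21 cartilage genes, 8 of 13 growth plate genes, 18 of 27 muscle genes and 15 of 24 genes of sugar breakdown, against 1249 of all 11487 genes (10.9%). For Fmod the difference was 0.09 ± 0.21 in DMM joints and -0.96 ± 0.21 in sham joints (interaction adjusted p = 0.251), and for Col3a1 0.11 ± 0.20 and -0.70 ± 0.20 (0.332).

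A list of 32 genes held a part of those that the study of these arrays names. Of this list 29 genes were tested, and 27 were below 0 in sham 16 weeks joints (51.2% of all genes). At an unadjusted p under 0.05, 12 were lower (7.13% of all genes), and 13 had pools apart (9.57% of all genes). The median was -0.32, and 0 were called in limma. Without sham 8 weeks replicate 2, 6 were lower at that level. This list was chosen on these same samples, so its direction is not independent evidence.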

How the data were processed

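RNA of 26 pools was hybridised to 1-colour Affymetrix mouse genome arrays. For 45101 probe sets the authors deposited a log2 signal after systematic variation normalization, which sets the arrays to 1 scale. These values were not rescaled, and detection p-values were not used here. No aligner or genome build applies, and the depth of an array has no count, so the number of pools limits precision. Control probe sets (64) and probe sets with a mean log2 signal of 7.9313 or less were left out, which left 22421. Of all probe sets 34945 had 1 gene symbol, 932 several and 9211 none, and only those with 1 were named. A gene was represented by its brightest probe set.

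One coefficient per condition (9) was fitted in limma 3.58.1 under R 4.3.3 (17 residual degrees of freedom), with Benjamini-Hochberg adjustment over all tested probe sets. The method was tested on simulated data. Text genes were all called genes (by rule, at most 12 in each direction) and, of each list described, the 2 brightest members and the 2 with the largest difference; others are marked, apart from cell type markers. The members and lists were chosen with earlier results of these data known.

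Pools were of different mice and the methods joined them into replicate time courses at random. Deviations from the group mean of same-numbered sham pools correlated at 0.519, 0.155 and 0.198 (DMM -0.0751, -0.062 and -0.261), all above 0.1 in sham, and with the replicate number as a block 4 probe sets were called in place of 2. Alternatives covered the filter, the arrays fitted, array weights, quantile normalization, a replicate block, muscle and Gapdh covariates, eBayes with trend, another probe set per gene, and leaving out each pool.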

Additional observations from a re-analysis of the deposited data

How the results depend on the processing

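The sham comparison called 2 probe sets, both lower. It called 2 with eBayes with trend, 2 with only the brightest probe sets tested (of which Cnmd was the 1 named gene and Grb14 was not tested) and 3 with quantile normalization. It called 1 without the signal filter (4158 at an unadjusted p under 0.05), 0 with the 6 arrays alone (2335), 1 with the 15 time 0 and sham arrays, 4 with a replicate block and 1 with the Gapdh covariate. Larger counts came with array weights (5510, of which 2386 were higher; that fit gave a convergence warning) and the muscle covariate (216, of which 200 were lower). A block on the 6 arrays alone, chosen after seeing the data, called 107 (106 lower). Leaving out 1 pool gave 0 to 34, with 34 without sham 8 weeks replicate 1. The cause of these differences was not tested.

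Among list members 1 was called, 2 with the block (Cnmd and Col2a1, adjusted p = 0.0452), 34 with the muscle covariate (all lower), 0 with the Gapdh covariate and 0 to 8 with 1 pool left out, again highest without sham 8 weeks replicate 1. The interaction called 1 probe set without the filter, 1858 with array weights, and 0 to 1 with 1 pool left out (1 without sham 8 weeks replicate 1 or DMM 16 weeks replicate 1); the DMM comparison called 0 in every alternative. The Cnmd difference lay between -1.36 and -0.99 with 1 pool left out (adjusted p 0.00594 to 0.229), and its call was lost with the 6 arrays alone (0.455), the 15 arrays (0.183) and the Gapdh covariate (0.0531). That of Grb14 lay between -0.56 and -0.49 (0.0278 to 0.269), and its call was lost without the filter (0.0757), with the 6 arrays (0.455) and with the block on them (0.058).

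Over 73 text genes, 1128 of 1230 alternative values kept direction and side of the threshold, 86 became called, 15 lost a call and 1 changed direction (Rsad2, -0.0094 without sham 16 weeks replicate 1, and up to 0.22 without sham 16 weeks replicate 2). Muscle genes were not refitted with the muscle covariate. Quantile normalization moved the median over all probe sets to 0.0119, against -0.0038.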

Other observations

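Several gene groups of the joint had a median near 0 between sham 16 weeks and sham 8 weeks. Such a median does not show that each member was level. Clock genes ranged from -0.40 to 0.18, and those of inflammation, chemokines and acute phase from -0.81 to 0.25. The median log2 difference was 0.03 over 20 macrophage genes, 0.02 over 13 complement genes, -0.01 over 20 genes of inflammation, chemokines and acute phase, 0.02 over 20 clock genes, 0.01 over 31 ribosomal protein genes and 0.02 over 10 senescence and ageing markers. Oxidative phosphorylation had a median of -0.05 in sham joints and 0.12 in DMM joints, where all 31 genes were above 0.

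The 1 gene with a difference above 1 was Erdr1, named after its value was seen. Its log2 signal was 11.49, 11.73 and 11.53 in sham 16 weeks pools and 10.96, 11.06 and 9.48 in sham 8 weeks pools (1.08 ± 0.27, SE; limma adjusted p = 0.239). Sham 8 weeks replicate 3 was again the low pool, and without it the difference was 0.57.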
